A study of Oryzias latipes with 48 samples.

Results

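The genes described here encode the proteins of the cytosolic ribosome in the brain of medaka (Oryzias latipes), a small freshwater fish that breeds seasonally. They were taken from the deposited expression table by product name. An entry was kept when its product held "40S ribosomal protein", "60S ribosomal protein", "ribosomal protein L", "ribosomal protein S" or "ribosomal protein lateral stalk". Products named mitochondrial, 39S, 28S or kinase were left out, and a mean of at least 1 FPKM over the 48 libraries was required. FPKM counts fragments per transcript length and per library size, and it stands for the relative RNA level of a gene. The rule took 83 of 26167 genes, and all 83 entries with such a name passed the minimum, as did 16622 genes in all. By product name, 35 of the 83 are proteins of the small 40S subunit and 46 are proteins of the large 60S subunit. The remaining 2 are named after a subunit protein without being one: rps19bp1, which encodes a nucleolar protein that binds S19, and rpl7l1, which encodes a relative of L7. The 81 subunit genes carry 73 distinct protein names, so some proteins are encoded by more than 1 entry. The orthology term deposited beside each entry named a subunit ribosomal protein for 82 of the 83. A few cytosolic ribosome genes with other product names fell outside the rule, of which the P2 genes and rack1 are given at the end, and the genes for P1, L38, L41 and S29 were not analysed here.

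Ribosomes read messenger RNA and build proteins from it. The 40S subunit decodes the message, and the 60S subunit joins the amino acids and releases the new chain through a tunnel. Each ribosome holds, with few exceptions, a single copy of each protein, and the genes are known for coordinated expression. In vertebrates their messenger RNAs begin with a terminal oligopyrimidine (TOP) tract, through which the kinase TOR and the protein LARP1 control their translation and stability. In the brain, ribosomes are found in the cell bodies and dendrites of neurons and in glia.

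RNA came from a block of brain (hypothalamus, pituitary and ventral telencephalon) of fish held under natural outdoor conditions in Okazaki, Japan. Sampling took place at both equinoxes (spring and autumn) and both solstices (summer and winter), at 6 clock hours (2, 6, 10, 14, 18 and 22) with 2 libraries each, so each season has 12 libraries and the series 48. No group received a treatment, and the daily profile in each season was the aim of the sampling. No source used here gives the strain, genotype, age or sex of the fish, how many went into a library, or the year and batch of each season. Season and batch cannot be told apart for that reason. Whether libraries hold different fish is not stated, and p-values therefore measure only how much the libraries spread, which may be technical.

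The depth of the libraries is unknown, because the table holds FPKM and no counts. The FPKM values summed to 314605 to 359311 per library. Transcripts of the block's expected cell types were present. The 10 neuronal markers tested summed to 1449 to 1754 FPKM in spring, 1736 to 2176 in summer, 1722 to 1928 in autumn and 1436 to 1686 in winter. The 9 myelin entries summed to 145 to 195, 249 to 359.8, 315 to 444 and 128 to 173 FPKM in the same order, and the 9 red blood cell entries to 163 to 368, 705 to 1759, 753 to 1478 and 304 to 964. The 10 pituitary hormone cell entries summed to 2118 to 4474, 2278 to 4415, 2589 to 3695 and 1198 to 2617 FPKM. No neuronal marker, 1 myelin marker (myrfl), 5 of 9 red blood cell entries and the pituitary entry prl were below the minimum, and the sums include them. Marker counts below cover the neuronal, myelin, radial glia and red blood cell lists. Counts of the pituitary, microglia, endothelium and proliferating cell lists are not given. Lists other than cell type markers are given only for summer against autumn or winter. In a principal component analysis of all tested genes other than the 83, the first component (42.8% of variance) set spring and winter libraries apart from summer and autumn libraries. The second (9.72%) lay at -1.69 to 19.3 in summer and at -19.2 to -0.811 in autumn. Of the spring libraries, the first of hour 2, the first of hour 18 and the second of hour 22 stood apart at 21.1 to 29.2, while the other 9 lay at 2.48 to 14.0. Results that rest on these 3 are given with and without them.

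The ribosomal protein genes were among the most abundant transcripts of the block. Their mean level had a median of 388 FPKM, against 7.93 FPKM over all tested genes, and 48 of the 83 stood among the 100 highest genes. Levels of the 40S genes (median 387 FPKM, 35 genes) and of the 60S genes (median 399 FPKM, 46 genes) were close. Most genes lay close together: 63 had a mean level from 200 to 700 FPKM. The highest was rpl32, for a protein of the 60S subunit, at 1099 FPKM. It was followed by rps25 (839.9 FPKM), which encodes a protein of the 40S head. Next came rpl23a (839 FPKM) and rpl39 (729.5 FPKM). L23a sits at the mouth of the exit tunnel, where the signal recognition particle docks, and L39 lines the tunnel. The others of the highest 10 were rpl18, the gene for L26 (LOC101161566), rpl6, rpl37a, the gene for L36a (LOC101168792) and rpl35, at 709 down to 574 FPKM. At the low end stood second entries for a protein that another gene supplies at a higher level. They include a gene for L5 (LOC101160347, 33.7 FPKM), a gene for an S27-like protein (LOC101161046, 4.15 FPKM) and rps10.

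The entry rps10, the lowest of the 83 by mean level, was listed at 0 in 22 libraries, lay above 0 and up to 1.99 FPKM in 12, and lay between 6.79 and 18.6 FPKM in 14. The 14 libraries came from all seasons (3 from spring, 5 from summer, 2 from autumn and 4 from winter). A second entry for S10, a protein of the 40S head (LOC105355366), lay between 239 and 368 FPKM in every library. Values listed at 0 can be failed estimates, so rps10 supports no statement on season.

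Together the 83 genes supplied a smaller share of the library FPKM in summer than in the other seasons. Their share was 8.55% ± 0.328 (SD, n = 12; 7.95% to 9.03%) in summer, 9.58% ± 0.548 (SD, n = 12; 8.71% to 10.5%) in autumn, 9.52% ± 0.567 (SD, n = 12; 8.80% to 10.7%) in winter and 9.53% ± 0.690 (SD, n = 12; 8.08% to 10.4%) in spring, where the range runs from the lowest to the highest library. Summer had the lowest mean and the smallest spread, although the 4 ranges overlap. The share of the 40S genes was 3.39% ± 0.145 in summer and 3.83% ± 0.225 in autumn, and that of the 60S genes 5.16% ± 0.186 and 5.74% ± 0.328 (SD, n = 12 each). Summer held the lowest season mean for 50 of the 83 genes (60.2%), against 25.6% of all tested genes. Autumn held the highest mean for 48 (57.8%), against 26.6% of all tested genes. In bulk tissue, fewer cells with the transcripts and less RNA per cell cannot be told apart.

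**Figure D1:**
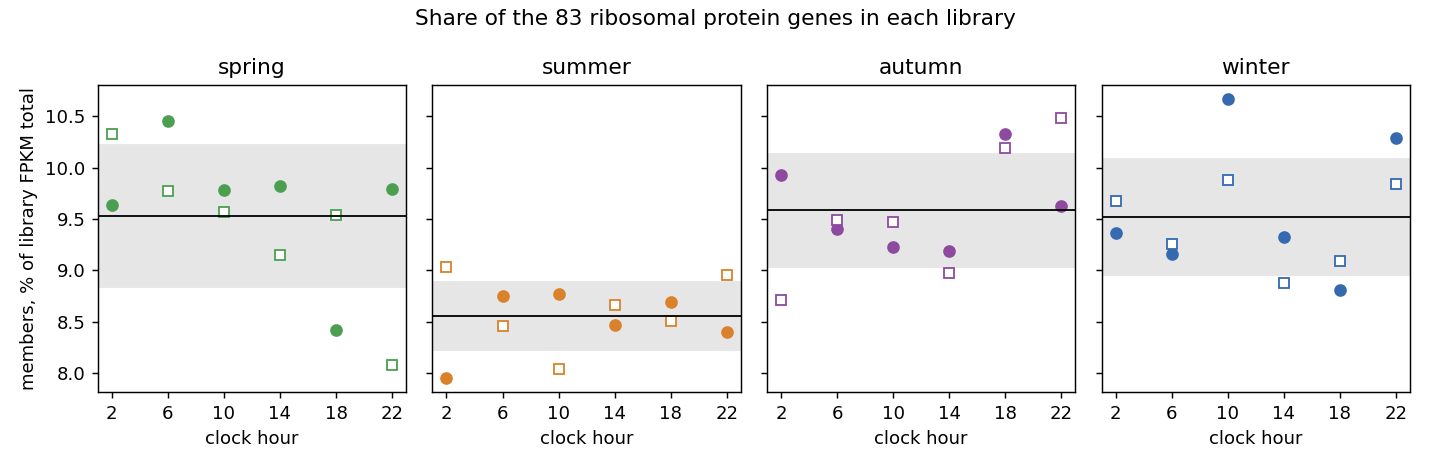
Share of the library FPKM total taken by the 83 ribosomal protein genes (percent, y axis) in each of the 48 libraries by clock hour (x axis, hours), with a panel per season. Filled circles are the first and open squares the second library of a group, and the line and grey band are the season mean ± SD. Summer libraries lie between 7.95% and 9.03%, while autumn libraries reach 10.5% and the second spring library of hour 22 is at 8.08%.

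Season differences were tested on log2(FPKM + 1) with limma, and a gene is called when its p, adjusted by Benjamini-Hochberg over the 16622 genes, is below 0.05. Fold values and SEs (±) below come from this fit, on the log2(FPKM + 1) scale, except those of ratios between genes of 1 protein name. Each p is an adjusted p from this fit unless stated. Of the 83 genes, 78 differed between any seasons (94%), against 90.9% of all tested genes, so season differences as such were as common elsewhere. The 5 without a call in this test across all seasons were rpl29, rpl23, rps4x, LOC111947053 of the 40S subunit and rps10. Some of them were called in tests of single season pairs. The gene rpl23 was lower in summer than in autumn and winter, and rpl29 was lower in summer than in spring. LOC111947053 was higher in autumn than in spring and winter. The 6 season pairs share libraries, so each pair's values stand on their own below and no overlap between pairs is given as a result.

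**Figure D2:**
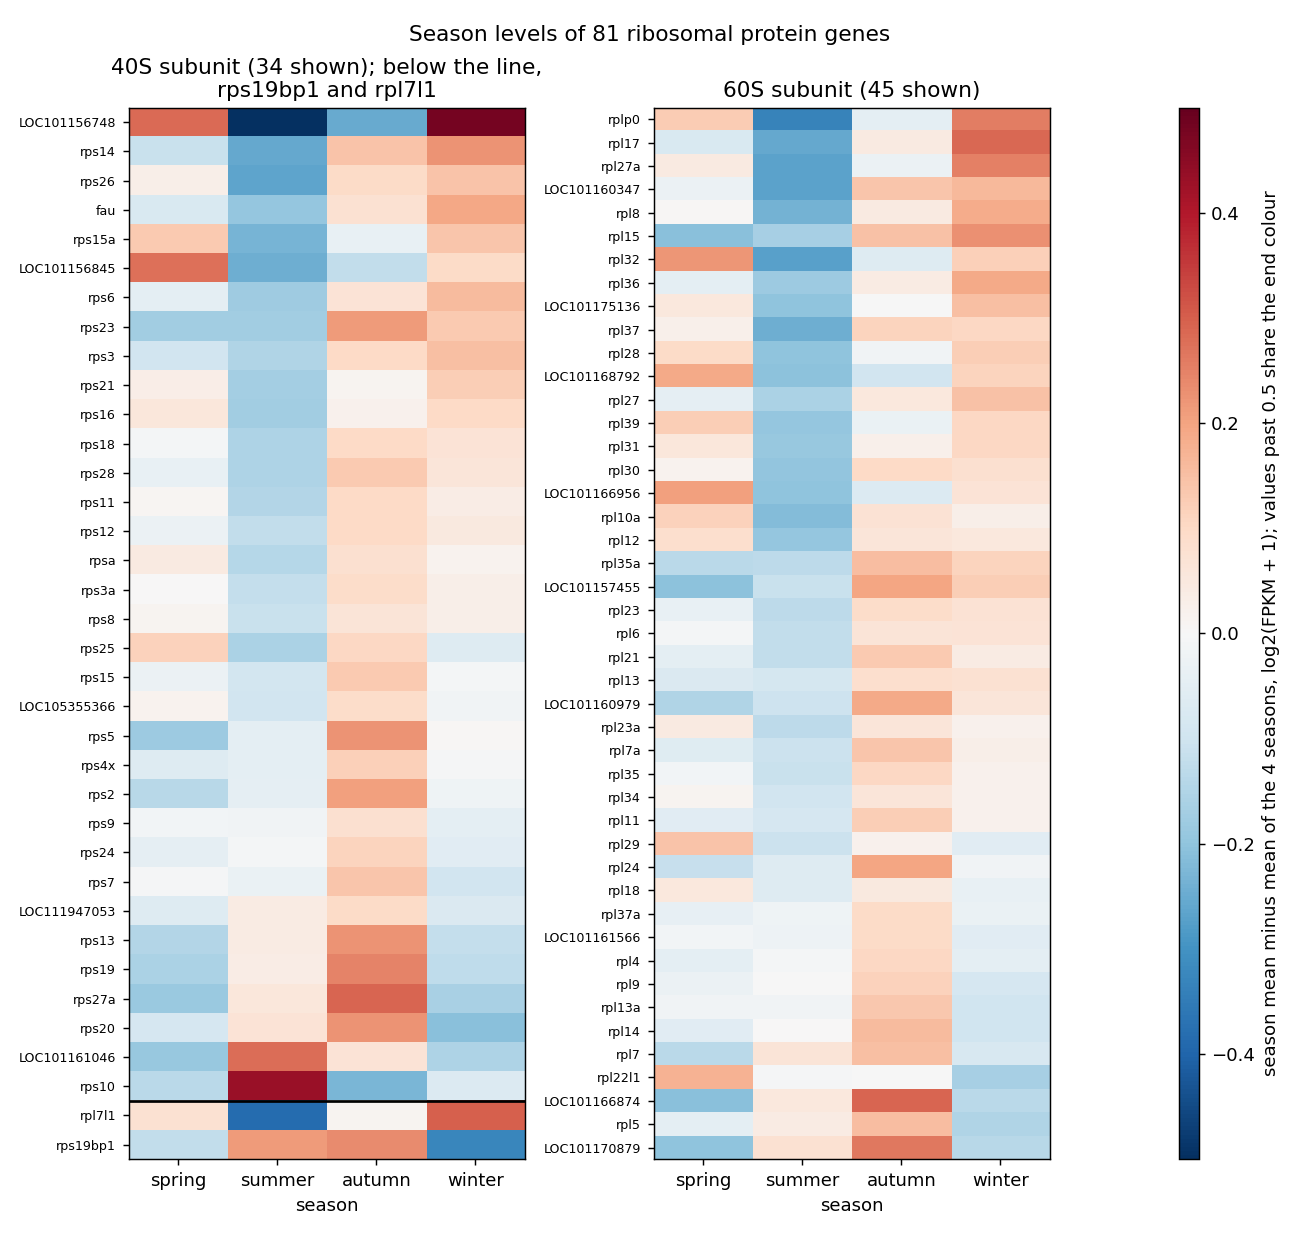
Season mean of 81 of the 83 ribosomal protein genes, each minus its mean over the 4 seasons, as colour on the log2(FPKM + 1) scale, with 40S genes on the left, 60S genes on the right and genes in rows. Most genes are lowest in summer (50 of 83) and highest in autumn (48 of 83), and a smaller set, with rps27a and the gene for L3, is higher in summer and autumn than in winter and spring.

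Summer against autumn gave the most uniform difference. In summer, 70 of the 83 genes were lower (84.3%; 24.2% of all tested genes) and 0 were higher (19.4% of all tested genes). At an unadjusted p below 0.05, 75 were lower and 0 higher. Both subunits took part, with 29 of 35 genes of the 40S and 40 of 46 of the 60S subunit. The differences were small and alike: the median over the 83 was -0.21 on the log2 scale (0.864-fold), against -0.013 over all tested genes. Called genes ranged from 1.08-fold to 1.33-fold lower in summer. For 1 of the 83, every summer library was below every autumn library (0.445% of all tested genes), and for 0 above (0.295%). Of the 83, 81 differences lay below 0, and both exceptions (rps10 and the S27-like LOC101161046) are low entries without a call. The direction held at each clock hour, where between 70 (hour 14) and 80 (hours 2, 6 and 18) of the 83 lay below 0, against 49.8% to 55.0% of all tested genes.

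The largest difference belonged to LOC101160347, a second gene for L5, the protein that carries 5S rRNA into the large subunit. It ranged from 24.8 to 30 FPKM (median 27.6) in summer and from 30.7 to 43.5 FPKM (median 35.9) in autumn, so no summer library reached the lowest autumn library (log2 difference -0.41 ± 0.0423, 1.33-fold, adjusted p = 2.03e-08). The major gene rpl5 ranged from 366 to 438 FPKM (median 407) in summer and from 414 to 496 FPKM (median 437) in autumn, with some overlap and a smaller difference (log2 difference -0.12 ± 0.0317, 1.08-fold, adjusted p = 0.00432). L11, the partner of L5 in the 5S particle, had the same direction. The gene rpl11 ranged from 334 to 408 FPKM (median 383) in summer and from 396 to 483 FPKM (median 439.6) in autumn, and the ranges overlapped in part (log2 difference -0.21 ± 0.0430, 1.15-fold, adjusted p = 0.000321). In human cells, free L5 and L11 bind MDM2, a regulator of p53.

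Among the 40S genes, rps14 showed the largest difference. S14 lies on the 40S platform near the messenger RNA. The gene ranged from 162 to 333 FPKM (median 271) in summer and from 236 to 425 FPKM (median 350.2) in autumn, and the libraries of the seasons overlapped (log2 difference -0.40 ± 0.130, 1.32-fold, adjusted p = 0.0143). S23 sits at the decoding centre, and rps23 ranged from 235 to 411 FPKM (median 367) in summer and from 369 to 555 FPKM (median 433) in autumn (log2 difference -0.39 ± 0.116, 1.31-fold, adjusted p = 0.00853). S26 lies at the exit of the messenger RNA channel, and rps26 differed by -0.36 ± 0.105 on the log2 scale (adjusted p = 0.00683). S6, the best known target of the TOR-dependent S6 kinase, had an ordinary difference for the group. The gene rps6 ranged from 339 to 440.3 FPKM (median 396) in summer and from 389 to 538 FPKM (median 471) in autumn (log2 difference -0.25 ± 0.0599, 1.19-fold, adjusted p = 0.00149). The gene rpsa, for the laminin receptor protein SA, and fau, whose product is a fusion of a ubiquitin-like protein and S30, were also lower in summer, by -0.23 ± 0.0526 and -0.27 ± 0.101 on the log2 scale (adjusted p = 0.00103 and 0.033).

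Among the 60S genes, rpl37 differed by -0.35 ± 0.0569 on the log2 scale (adjusted p = 1.6e-05), with 334 to 427 FPKM (median 375) in summer and 418 to 571 FPKM (median 463) in autumn, nearly without overlap. Its product is a zinc-finger protein. The stalk, which recruits elongation factors, is held by P0. The gene rplp0 ranged from 235 to 335 FPKM (median 304) in summer and from 289.9 to 406 FPKM (median 369) in autumn (log2 difference -0.28 ± 0.0637, 1.22-fold, adjusted p = 0.000744). L10 joins late and completes the subunit before it is used. Its gene (LOC101160979) ranged from 268 to 406 FPKM (median 377) in summer and from 349.7 to 528 FPKM (median 435) in autumn (log2 difference -0.29 ± 0.0867, 1.22-fold, adjusted p = 0.00771). L3 reaches towards the peptidyl transferase centre, and its gene (LOC101166874) was lower in summer by -0.24 ± 0.0502 on the log2 scale (adjusted p = 0.000412). The paralog-like rpl7l1, no subunit gene, was also lower in summer, with 9.85 to 13.9 FPKM (median 11.7) against 12.4 to 17.8 FPKM (median 15.8) in autumn (log2 difference -0.40 ± 0.0635, 1.32-fold, adjusted p = 1.43e-05).

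The 13 genes without a call for summer against autumn were the gene for L36a (LOC101168792), rpl29, rps4x, rps9, rpl4, rpl7, rpl22l1, both minor S27 genes (LOC101156845 and LOC101161046), a minor gene for L22 (LOC101166956), LOC111947053, rps19bp1 and rps10. Their differences ran from -0.17 (rps4x) up to 0.66 (rps10) on the log2 scale. The second component of the other genes set most libraries of the same seasons apart, with some overlap, and whether it bears on the ribosomal protein genes was not tested. Neuronal markers were 5 higher and 1 lower of 10, myelin markers 1 higher and 3 lower of 8, radial glia markers 1 higher and 2 lower of 7 and red blood cell markers 2 higher and 0 lower of 4 tested in summer against autumn, and their part in the result was not tested. Scaling changed the size of the result: 33 genes were lower and 0 higher after quantile normalization (median -0.092), against 65 and 0 after median-ratio scaling. The share of all tested genes called under these scalings was not computed.

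**Figure D3:**
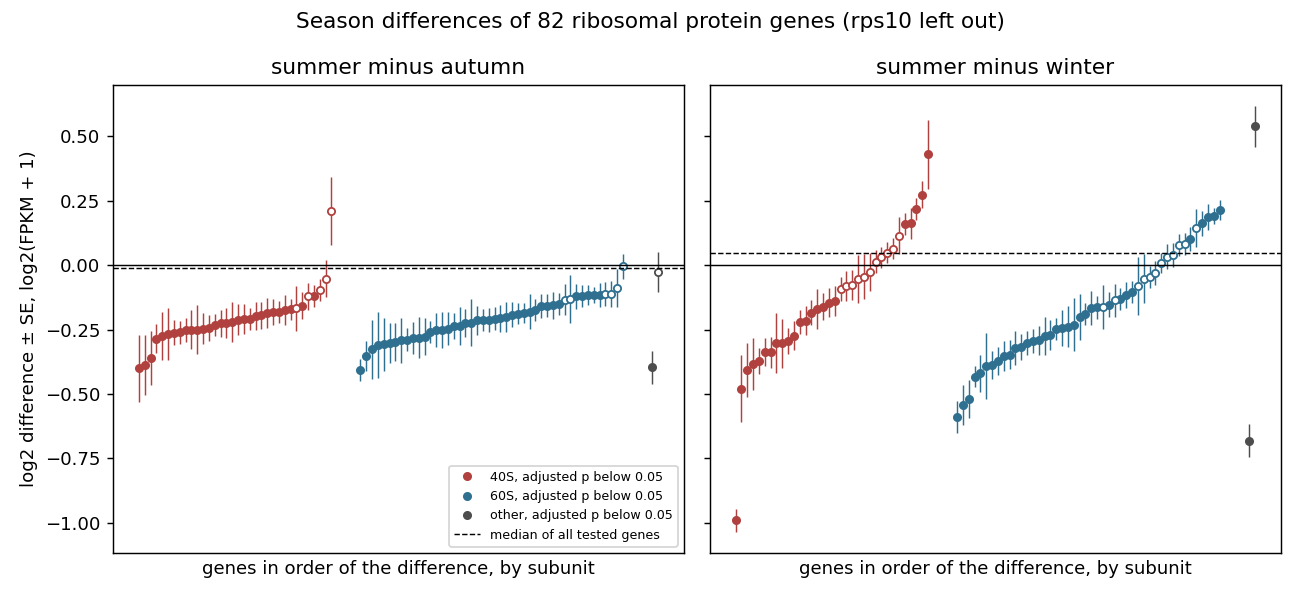
Log2 difference ± SE (y axis, log2(FPKM + 1)) of 82 ribosomal protein genes, rps10 left out, for summer minus autumn and summer minus winter, in order of the difference within each subunit. Filled points have an adjusted p below 0.05 in limma, and the dashed line is the median of all tested genes. For summer minus autumn the genes form a narrow band around a median of -0.21, while for summer minus winter they spread from -0.99 to 0.54.

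Summer against winter split the genes. In summer 48 were lower (57.8%; 32.9% of all tested genes), 11 were higher (13.3%; 42%) and 24 had no call. The median was -0.16, against 0.047 over all tested genes. The largest difference was that of the major gene for S27, a zinc-finger protein of the 40S subunit (LOC101156748). It ranged from 247 to 305 FPKM (median 272) in summer and from 469 to 630.5 FPKM (median 543) in winter, so every winter library was above every summer library (log2 difference -0.99 ± 0.0445, 1.99-fold, adjusted p = 1.38e-17). Second came rpl7l1, with 9.85 to 13.9 FPKM (median 11.7) in summer and 15.8 to 22.1 FPKM (median 19.3) in winter, again without overlap (log2 difference -0.68 ± 0.0635, 1.60-fold, adjusted p = 1.21e-10). The next was rplp0, the gene for the stalk base P0, which ranged from 355 to 535 FPKM (median 447) in winter and did not overlap with summer (log2 difference -0.59 ± 0.0637, 1.51-fold, adjusted p = 2.35e-09).

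Other genes lower in summer than in winter included rpl17, rpl39 and rpl23a. Levels of rpl17 ranged from 228 to 364 FPKM (median 295) in summer and from 372 to 512 FPKM (median 437) in winter (log2 difference -0.54 ± 0.0774, 1.46-fold, adjusted p = 3.6e-07). Those of rpl39 were lower by -0.30 ± 0.0465 on the log2 scale (adjusted p = 1.81e-06) and those of rpl23a by -0.15 ± 0.0479 (adjusted p = 0.00512). The gene rpl27a ranged from 294 to 438 FPKM (median 389) in summer and from 463 to 682 FPKM (median 519.7) in winter, without overlap (log2 difference -0.52 ± 0.0739, 1.43-fold, adjusted p = 3.74e-07). The gene rpl32 ranged from 785 to 1001 FPKM (median 905) in summer and from 1003 to 1392 FPKM (median 1195) in winter, with the lowest winter library just above the highest summer library (log2 difference -0.39 ± 0.0537, 1.31-fold, adjusted p = 2.17e-07).

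The 11 genes higher in summer than in winter were rps13, rps19, rps20, rps27a, rpl5, rpl14, the gene for L3 (LOC101166874), a gene for L19 (LOC101170879), rpl22l1, rps19bp1 and the S27-like LOC101161046. S20 belongs to the 40S head, and rps20 ranged from 356 to 459.6 FPKM (median 400.3) in summer and from 281 to 388 FPKM (median 329.8) in winter, with a small overlap (log2 difference 0.27 ± 0.0531, 1.21-fold, adjusted p = 3.9e-05). S27a is made as a fusion with ubiquitin, and rps27a ranged from 421 to 505 FPKM (median 472) in summer and from 361 to 460.4 FPKM (median 395) in winter (log2 difference 0.22 ± 0.0428, 1.16-fold, adjusted p = 4.31e-05). S19, the protein altered most often in human Diamond-Blackfan anaemia, had a gene with 179 to 221 FPKM (median 194) in summer and 154 to 206 FPKM (median 175) in winter (log2 difference 0.16 ± 0.0589, 1.12-fold, adjusted p = 0.0149). Its nucleolar partner rps19bp1 had the highest difference, with 6.86 to 10.4 FPKM (median 8.79) in summer and 4.03 to 8.94 FPKM (median 5.42) in winter (log2 difference 0.54 ± 0.0787, 1.45-fold, adjusted p = 5.73e-07). The S27-like LOC101161046 was higher in summer as well (log2 difference 0.43 ± 0.132, 1.35-fold, adjusted p = 0.00474), in the opposite direction to the major S27 gene.

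Between summer and winter the cell type markers moved as well. Neuronal markers were 9 higher and 0 lower of 10, myelin markers 5 higher and 0 lower of 8, radial glia markers 3 higher and 2 lower of 7 and red blood cell markers 4 higher and 0 lower of 4 in summer, and their part in the result was not tested. At each clock hour the median over the 83 was below 0, from -0.35 (hour 10, 72 of 83 below 0) to -0.020 (hour 18, 44 below 0). Of all tested genes, 47.2% lay below 0 at hour 10 and 42.5% at hour 18. After quantile normalization 21 ribosomal protein genes were higher and 37 lower, with a median of -0.065.

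Spring against autumn gave 38 genes lower in spring (45.8%; 45.1% of all tested genes) and 9 higher (10.8%; 27.3%), both close to or below the share of all genes. The median was -0.12, against -0.083 over all tested genes. Among the lowest were genes of both subunits. The gene for L3 (LOC101166874) ranged from 216 to 316 FPKM (median 270.3) in spring and from 316 to 424 FPKM (median 381) in autumn, and the lowest autumn library was level with the highest spring library (log2 difference -0.50 ± 0.0502, 1.41-fold, adjusted p = 7.45e-10). The gene rps27a ranged from 338 to 473 FPKM (median 391) in spring and from 468 to 634 FPKM (median 550.0) in autumn (log2 difference -0.48 ± 0.0428, 1.39-fold, adjusted p = 7.02e-11). In the other direction stood the major S27 gene (LOC101156748), with 373 to 544 FPKM (median 502) in spring and 273 to 378 FPKM (median 331) in autumn (log2 difference 0.54 ± 0.0445, 1.45-fold, adjusted p = 1.45e-11). A minor S27 gene (LOC101156845) and rpl32 were higher in spring as well, by 0.40 ± 0.0537 and 0.28 ± 0.0537 on the log2 scale (adjusted p = 1.78e-07 and 2.97e-05).

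The clock hours differed for spring against autumn. At hours 18 and 22 the median over the 83 genes was -0.36 and -0.34, with 74 of 83 below 0 at each. At hours 2 to 14 it lay between -0.017 and 0.039. Of all tested genes, 60.4% lay below 0 at hour 18 and 59.3% at hour 22. A library of hour 18 and a library of hour 22 belong to the 3 spring libraries that stood apart. These held shares of the library FPKM of 8.42% and 8.08%, and the other spring library of each hour 9.54% and 9.79%. The autumn libraries were at 10.3% and 10.2% at hour 18 and at 9.63% and 10.5% at hour 22. Without those 3, 25 genes were lower and 14 higher. After median-ratio scaling 18 were lower and 19 higher, and after quantile normalization 17 and 17, so the direction with more calls rests on the scaling. In spring neuronal markers were 0 higher and 8 lower of 10, myelin markers 0 higher and 6 lower of 8, radial glia markers 0 higher and 5 lower of 7 and red blood cell markers 0 higher and 4 lower of 4, and their part in the result was not tested.

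In summer against spring, 35 genes were lower in summer (42.2%; 29.9% of all tested genes) and 10 were higher (12%; 43.9%). The median was -0.11, against 0.067 over all tested genes. The major S27 gene (LOC101156748) was again the lowest, with every summer library (247 to 305 FPKM (median 272)) below every spring library, which ranged from 373 to 544 FPKM (median 502) (log2 difference -0.80 ± 0.0445, 1.74-fold, adjusted p = 2.28e-15). The minor S27 gene LOC101156845 ranged from 57.0 to 76.4 FPKM (median 68.4) in summer and from 77.3 to 117 FPKM (median 98.3) in spring, without overlap (log2 difference -0.52 ± 0.0537, 1.43-fold, adjusted p = 1.18e-09). The gene rpl32 ranged from 1076 to 1512 FPKM (median 1251) in spring, above all summer libraries (log2 difference -0.49 ± 0.0537, 1.41-fold, adjusted p = 3.29e-09). Higher in summer were LOC101161046, rps19bp1 and the L19 gene LOC101170879, by 0.47 ± 0.132, 0.34 ± 0.0787 and 0.28 ± 0.0387 on the log2 scale (adjusted p = 0.00243, 0.000391 and 2.5e-07). Median-ratio scaling gave 48 lower and 6 higher.

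The direction of summer against spring turned with the clock hour. At hours 2 to 14 the median over the 83 genes lay between -0.21 and -0.097, with 57 (hour 14) to 71 (hour 2) of 83 below 0. At hours 18 and 22 it was 0.051 and 0.056, with 33 and 32 below 0. Of all tested genes, 42.0% to 45.7% lay below 0 at hours 2 to 14, and 38.8% and 43.3% at hours 18 and 22. The medians of all tested genes at hours 18 and 22 were 0.119 and 0.068, so the 83 lay close to all genes there. Hours 2, 18 and 22 each hold 1 of the 3 spring libraries that stood apart, and without these 48 genes were lower in summer and 7 higher. In summer neuronal markers were 9 higher and 0 lower of 10, myelin markers 5 higher and 0 lower of 8, radial glia markers 5 higher and 0 lower of 7 and red blood cell markers 4 higher and 0 lower of 4, and their part in the result was not tested.

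In autumn against winter, 27 genes were higher in autumn (32.5%; 42.4% of all tested genes) and 14 were lower (16.9%; 29.3%), both shares below those of all genes. For 3 of the 83, every autumn library was above every winter library (11.9% of all tested genes), and for 1 below (6.86%). The highest were rps19bp1, rps27a and rps20. The gene rps27a ranged from 468 to 634 FPKM (median 550.0) in autumn, above every winter library (log2 difference 0.45 ± 0.0428, 1.37-fold, adjusted p = 2.31e-10). The gene rps20 ranged from 387 to 533 FPKM (median 440.5) in autumn and from 281 to 388 FPKM (median 329.8) in winter, and the ranges just touched (log2 difference 0.43 ± 0.0531, 1.35-fold, adjusted p = 3.63e-08). The major S27 gene was lowest, with every autumn library below every winter library (log2 difference -0.73 ± 0.0445, 1.66-fold, adjusted p = 1.96e-14). It was followed by rplp0 (log2 difference -0.31 ± 0.0637, 1.24-fold, adjusted p = 0.000105) and rpl7l1 (log2 difference -0.29 ± 0.0635, 1.22-fold, adjusted p = 0.00024). The median over the 83 was 0.063, close to the 0.059 over all tested genes. After median-ratio scaling the median over the 83 turned to -0.0096, with 14 higher and 21 lower. By clock hour the median over the 83 ran from -0.12 (hour 10, 63 of 83 below 0) to 0.30 (hour 18, 10 below 0). Of all tested genes, 45.6% lay below 0 at hour 10 and 42.0% at hour 18. In autumn neuronal markers were 7 higher and 1 lower of 10, myelin markers 7 higher and 0 lower of 8, radial glia markers 3 higher and 1 lower of 7 and red blood cell markers 4 higher and 0 lower of 4, and their part in the result was not tested.

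Spring against winter had the fewest calls. In spring 19 genes were lower (22.9%; 28.1% of all tested genes) and 5 were higher (6.02%; 21.3%). The median was -0.049, against -0.023 over all tested genes. The lowest was rpl15, for a protein of the 60S subunit. It ranged from 55.0 to 154 FPKM (median 123) in spring and from 90.0 to 210.1 FPKM (median 159) in winter (log2 difference -0.43 ± 0.128, 1.35-fold, adjusted p = 0.00637). It was followed by rpl17 (log2 difference -0.36 ± 0.0774, 1.29-fold, adjusted p = 0.000344) and rps14 (log2 difference -0.33 ± 0.130, 1.26-fold, adjusted p = 0.0344). Highest was rpl22l1, with 109.7 to 172 FPKM (median 134) in spring and 86.7 to 148 FPKM (median 106) in winter (log2 difference 0.34 ± 0.0488, 1.26-fold, adjusted p = 2.75e-06). Next were rps19bp1 and rps25, by 0.20 ± 0.0787 and 0.18 ± 0.0471 on the log2 scale (adjusted p = 0.0347 and 0.00241). The count of lower genes rests on the 3 spring libraries that stood apart: without them 5 were lower and 12 higher, and the calls of rpl15, rps14 and rps19bp1 were lost. The calls of rps14 and rps19bp1 were also lost in a fit of spring and winter alone (adjusted p = 0.0585 and 0.0643) and without a filter on low values. By clock hour the median over the 83 ran from -0.27 (hour 22, 74 of 83 below 0) to 0.16 (hour 6, 10 below 0). Of all tested genes, 53.0% lay below 0 at hour 22 and 49.1% at hour 6. In spring neuronal markers were 1 higher and 5 lower of 10, myelin markers 2 higher and 0 lower of 8, radial glia markers 0 higher and 4 lower of 7 and red blood cell markers 0 higher and 3 lower of 4, and their part in the result was not tested. Median-ratio scaling gave 17 lower and 12 higher, and quantile normalization 11 and 21, with a median of 0.014.

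The genes also moved together between libraries of the same season and hour. A first principal component of their deviations from the group means held 61.2% of the variance of the 82 genes other than rps10, and 73 of the 82 had weights of the same sign. Among the highest weights were those of rps14, rpl15, rps23 and rps26. The 9 genes with the opposite sign were rps19bp1, rpl29, LOC101161046, LOC111947053, rps24, LOC101168792, rps25, rpl32 and rpl22l1, with weights from -0.0931 to -3.00e-04. This is a description of 48 libraries whose batches are not stated, and the source of the common movement was not tested. The component was not computed for other genes, so the extent to which they move together within groups is not known. The median deviation of the genes from their means differed between the 2 libraries of a group by 0.10 at the median on the log2 scale and by up to 0.35. The widest gap was at spring hour 22, where the share of the library was 9.79% in the first library and 8.08% in the second. On the second component of the other genes, these libraries lay at 14.0 and 24.1. At summer hour 10 that component was 1.94 and 19.3, with median deviations of -0.043 and -0.26. Not all pairs ran this way: at winter hour 22 it was -18.3 and -20.7, with 0.23 and 0.12. Whether that component and the movement of the ribosomal protein genes are linked was not tested.

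Spread within groups differed between genes. The SD between libraries of a group had a median of 0.14 on the log2 scale over the 83 genes and of 0.13 over all tested genes. It was lowest for rpl5 (0.072) and, rps10 aside, highest for LOC101161046 and rps14 (0.34 and 0.34). The gene rps14 ranged from 120.1 to 384 FPKM (median 316) in spring and was lowest in the 3 libraries that stood apart, at 208 FPKM in the first of hour 2, 120.1 FPKM in the first of hour 18 and 201 FPKM in the second of hour 22. The other library of each hour was at 384, 311 and 305 FPKM. The least variable gene, rpl5, was at 394 and 388 FPKM in the libraries of hour 18.

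In all, 6 protein names are carried by more than 1 subunit gene, which makes 14 genes and 10 pairs. For each pair the difference of log2(FPKM + 1) between the genes was compared between seasons, 12 libraries against 12, with a two-sided permutation test of 100000 resamples. Libraries were exchanged freely between the seasons compared, so the match by clock hour was not used. Over the 60 tests, p-values were adjusted by Benjamini-Hochberg and 33 were below 0.05. Folds and SEs of these ratios come from the means and the spread of the 12 libraries of each season, not from the limma fit. Because near-identical copies may share reads in the authors' counting, these values are less certain than those of genes with a name of their own.

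S27 had the widest shift. The major gene (LOC101156748, 411 FPKM on average), the minor gene LOC101156845 (81.4 FPKM) and the S27-like LOC101161046 (4.15 FPKM) took different courses. From winter to summer the major gene was lower against LOC101156845 (log2 difference -0.65 ± 0.0593, 1.57-fold, adjusted p = 9.23e-05, permutation test). Against LOC101161046 the shift was larger (log2 difference -1.42 ± 0.101, 2.68-fold, adjusted p = 9.23e-05, permutation test). LOC101156845 ranged from 57.0 to 76.4 FPKM (median 68.4) in summer and from 75.5 to 102 FPKM (median 85.0) in winter, and LOC101161046 from 3.31 to 6.77 FPKM (median 5.27) and from 2.5 to 5.64 FPKM (median 3.54). Between spring and autumn the first pair had no called shift (log2 difference 0.14 ± 0.0882, 1.10-fold, adjusted p = 0.184, permutation test).

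L5, L19 and L22 shifted as well. The balance of rpl5 to its minor copy LOC101160347 was higher in summer than in winter (log2 difference 0.62 ± 0.0485, 1.54-fold, adjusted p = 9.23e-05, permutation test) and higher in summer than in autumn (log2 difference 0.29 ± 0.0491, 1.22-fold, adjusted p = 0.00012, permutation test). It was also called for the other pairs except spring minus autumn (adjusted p = 0.608, permutation test). L19 reaches across to the 40S subunit and forms bridges between the subunits. Of its genes, LOC101157455 ranged from 139.8 to 233 FPKM (median 207) in summer and from 198 to 280.5 FPKM (median 217) in winter, while LOC101170879 ranged from 119 to 151 FPKM (median 139.8) and from 113 to 131 FPKM (median 119). Their ratio was lower in summer than in winter (log2 difference -0.45 ± 0.0738, 1.36-fold, adjusted p = 9.23e-05, permutation test). In mice, L22-like 1 can take the place of its relative L22 in the ribosome. The ratio of the major L22 gene (LOC101175136) to rpl22l1 was lower in summer than in winter (log2 difference -0.52 ± 0.0517, 1.43-fold, adjusted p = 9.23e-05, permutation test) and lower in spring than in winter (log2 difference -0.44 ± 0.0924, 1.35-fold, adjusted p = 0.00015, permutation test). Against the remaining L22 entry (LOC101166956) the major gene had no called shift between summer and winter (log2 difference -0.083 ± 0.0524, 1.06-fold, adjusted p = 0.184, permutation test). For S10, whose entry rps10 is at 0 in many libraries, none was called.

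**Figure D4:**
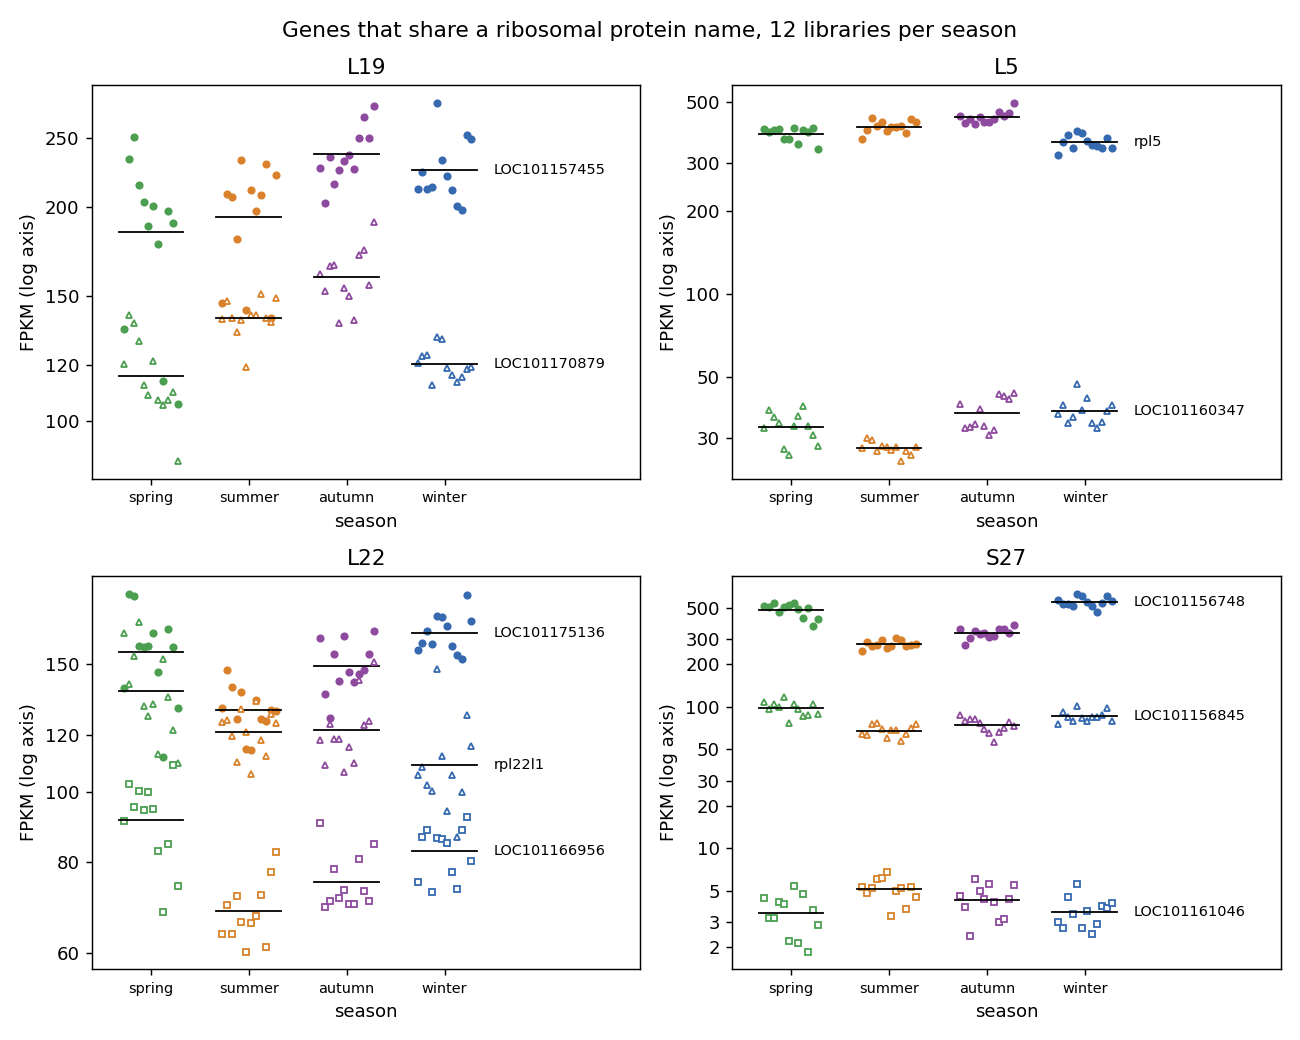
Level (y axis, FPKM on a log axis) of genes that carry the name L19, L5, L22 or S27 in each season (x axis), with the 12 libraries as points and a line for the season mean. The major S27 gene is higher in winter (median 543 FPKM) than in summer (median 272 FPKM), while rpl5 is higher in summer than in winter and its copy LOC101160347 lower.

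Daily curves of the ribosomal protein genes were weak. A cosine curve of 24 h period was fitted to each gene in each season with limma, and the amplitude is the log2 distance from the mean to the peak. Averaged over the seasons, 0 of the 83 genes had a called curve, against 13.5% of all tested genes, and 1 (LOC101156845) had an unadjusted p below 0.05 (smallest adjusted p = 0.0913). By season, 1 gene was called in spring (2.59% of all tested genes), 0 in summer (13.6%), 1 in autumn (16.1%) and 1 in winter (1.53%). At an unadjusted p below 0.05 there were 41 (49.4%; 19.7% of all tested genes) in spring, 0 (0%; 27.7%) in summer, 9 (10.8%; 29.5%) in autumn and 3 (3.61%; 17.1%) in winter. The median amplitude over the 82 genes other than rps10 was 0.14 in spring, 0.061 in summer, 0.089 in autumn, 0.057 in winter and 0.033 for the mean curve. Without the 3 spring libraries that stood apart, 9 (10.8%; 11.5% of all tested genes) had an unadjusted p below 0.05 in spring and the median amplitude there was 0.089. As a season spans a single cycle, a daily curve and a drift during the sampling cannot be told apart.

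The called curve in spring was that of rpl17 (amplitude 0.33, peak at hour 7.6, adjusted p = 0.0264). Its spring libraries were at 395 and 376 FPKM at hour 6 and at 202 and 337 FPKM at hour 18. Hour 18 holds the lower values, and without the 3 spring libraries that stood apart the amplitude was 0.19 and the call was lost. In autumn the minor S27 gene LOC101156845 was called (amplitude 0.20, peak at hour 3.0, adjusted p = 0.022), with 86.9 and 79.1 FPKM at hour 2 and 65.7 and 56.2 FPKM at hour 14. In winter LOC111947053, a gene of the 40S subunit, was called (amplitude 0.34, peak at hour 9.0, adjusted p = 0.0325). It was at 149 and 139 FPKM at hour 10 and at 87.8 and 81.0 FPKM at hour 22. Curves differed between the seasons for 6 of the 83 genes (7.23%; 21.5% of all tested genes): LOC111947053, rps19bp1, rpl17, rpl39, LOC101170879 and rps27a.

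**Figure D5:**
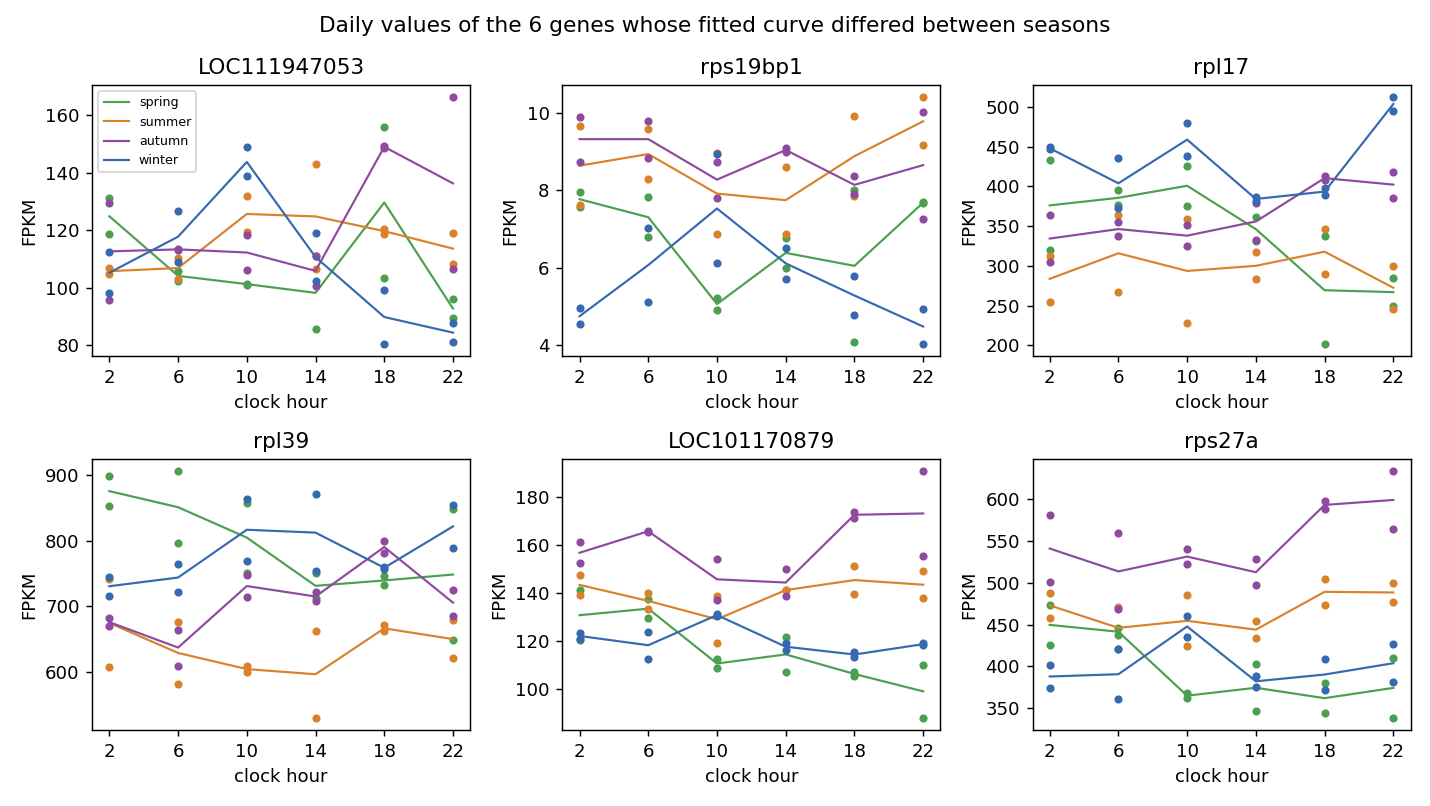
Level (y axis, FPKM) of the 6 genes whose fitted curve differed between seasons, by clock hour (x axis, hours), with libraries as points and lines through the means of the 2 libraries in each season. In winter LOC111947053 is highest at hour 10 (149 and 139 FPKM), while its autumn libraries are high at hour 18 (149 and 148 FPKM).

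For summer against autumn, 2 of 3 cytosolic ribosome genes outside the naming rule were lower in summer; they were chosen after their values were seen. The gene rack1, for a scaffold on the 40S head, differed by -0.21 ± 0.0650 on the log2 scale (adjusted p = 0.00895). Of the genes for the stalk protein P2, LOC101168608 differed by -0.24 ± 0.0743 (adjusted p = 0.00906) and LOC101170669 by -0.10 ± 0.0594 (adjusted p = 0.157), which is no call.

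Most of the genes listed as building the ribosome were also called lower in summer. Of 36 ribosome biogenesis genes, 27 were lower in summer than in autumn and 2 higher (median -0.22), and 25 lower and 7 higher than in winter (median -0.26). Of all tested genes 24.2% were lower and 19.4% higher in summer than in autumn, and 32.9% lower and 42% higher than in winter. The gene fbl, for the rRNA methyltransferase fibrillarin, differed by -0.33 ± 0.0438 on the log2 scale between summer and autumn (adjusted p = 1.22e-06). The gene dkc1, for the pseudouridine synthase dyskerin, ranged from 4.16 to 12 FPKM in summer and from 8.72 to 14.2 FPKM in autumn (log2 difference -0.61 ± 0.110, 1.53-fold, adjusted p = 5.94e-05). Against winter, imp3, for a processing factor of the small subunit, and nob1, for the nuclease that matures its rRNA, had the largest differences. The gene imp3 ranged from 8.88 to 13.9 FPKM in summer and from 20.04 to 27.4 FPKM in winter (log2 difference -1.01 ± 0.0646, 2.01-fold, adjusted p = 4.17e-14), and nob1 differed by -0.95 ± 0.0901 (adjusted p = 1.74e-10). In the other direction, polr1c, a subunit of RNA polymerases I and III, was higher in summer than in winter (log2 difference 0.68 ± 0.0343, 1.61-fold, adjusted p = 1.83e-16).

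Other genes known for a TOP tract followed in part. Of 15 translation elongation and related genes, 12 were lower in summer than in autumn and 0 higher (median -0.14), among them eef2, the translocation factor (log2 difference -0.40 ± 0.0357, 1.32-fold, adjusted p = 1.39e-09). Against winter 4 were lower and 6 higher, where 32.9% of all tested genes were lower and 42% higher. Of 16 TOR signalling genes, 7 were higher in summer than in autumn and 2 lower (median 0.048). The gene eif4ebp3, for a translation repressor that TOR inhibits, was the largest of these (log2 difference 0.59 ± 0.0486, 1.503-fold, adjusted p = 3.29e-10), and larp1 was lower in summer (log2 difference -0.20 ± 0.0364, 1.15-fold, adjusted p = 9.33e-05). Protein machines outside the cytosolic ribosome gave counts in the same direction. Of 75 mitochondrial ribosomal protein genes, 33 were lower and 1 higher in summer than in autumn (median -0.12). Of 43 proteasome subunit genes, 34 were lower and 0 higher (median -0.20). Whether the cytosolic ribosomal protein genes differ from these groups was not tested, and the shares of all tested genes for this season pair are 24.2% lower and 19.4% higher.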

How the data were processed

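The deposited table gives FPKM, which the authors computed per transcript length and library size, for each of 26167 genes in 48 libraries. Libraries were poly-A selected, strand-specific and paired-end, per the labels' protocols. The tools were Bowtie2 2.2.5 and RSEM 1.2.12, per the submitters' processing notes, which leave out build, annotation and filters. The table holds no counts, so depth is unknown and no counting interval is given. FPKM are shares of a library, so a change in other abundant genes moves them.

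Genes with a mean of at least 1 FPKM were tested on log2(FPKM + 1), with no further scaling, in limma 3.58.1 (R 4.3.3) with an intensity trend. Season contrasts came from a fit of the 24 groups of season and hour (24 residual degrees of freedom), and 24 h cosine curves from a fit with 36. Tests are two-sided and Benjamini-Hochberg adjusted over 16622 genes, and the call threshold is 0.05. The fits were tested on simulated data with independent noise for each gene and library, which do not cover movement shared between genes. Ratios between genes of 1 protein name, season shares and summaries used Python 3.11.15, numpy 2.4.6 and pandas 2.3.3. Folds are on the log2(FPKM + 1) scale and understate changes of low genes.

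Members and lists were chosen with earlier results of these data known. All members may be named. Described in depth are those with the highest level, the widest season range or the highest and lowest called differences. Those with the smallest rhythm p or a shared protein name are included too. Others were listed by protein name, among them P0, S27a, S30, S6, L3 and L10. The genes rpl11, rps23, rps26 and rpsa fall under none of these rules. From the other lists come genes called with a difference of 1.5-fold or more. The genes fbl, eef2, larp1 and the ribosome genes outside the rule were chosen after their values were seen. All 83 IDs matched a reference table used for names alone, so no sequences are shown. A few genes, and a pair of genes of 1 protein name, are not reported here. Alternatives were a pseudocount of 0.1, no filter, a minimum of 5 FPKM, median-ratio scaling, array weights, quantile normalization, fits restricted to 2 seasons, a block on the running number, and leaving out libraries.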

Additional observations from a re-analysis of the deposited data

Results flagged for a closer look

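The fitted daily curves of 6 ribosomal protein genes differed between the seasons, by the limma test of the curve differences with Benjamini-Hochberg adjustment over 16622 genes, where 21.5% of all tested genes were called. For LOC111947053, a gene of the 40S subunit, the adjusted p was 0.0115. It kept its call under each alternative run for the curves (a pseudocount of 0.1, other filters, both other scalings, array weights and 3 spring libraries left out) and in each of the 48 omissions of a library. For rps19bp1, the gene of a nucleolar partner of S19, it was 0.0154, and 0.0572 without the first winter library of hour 10. For rpl17, whose product lies at the exit tunnel, it was 0.0214, but 0.18 without the 3 spring libraries that stood apart. For rpl39, the gene of a tunnel protein, it was 0.0401, for LOC101170879, a gene for L19, 0.0419, and for rps27a, the ubiquitin fusion gene, 0.0476. These 3 lost their calls in 14, 16 and 28 of 48 omissions of a library. They lost them as well without a filter on low values (adjusted p = 0.0878, 0.0605 and 0.0811) and without the 3 spring libraries (0.0514, 0.0604 and 0.0607). After median-ratio scaling LOC101170879 and rps27a lost theirs (0.0542 and 0.0615), and after quantile normalization rpl39 and rps27a (0.0806 and 0.0648).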

How the results depend on the processing

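A pseudocount of 0.1 moved no count of called genes by more than 1.5 times. For the season counts, neither did a fit of the compared seasons alone or the block on the running number. The daily curves were not run in these last fits. Without a filter on low values, where more genes are tested, 0 genes were rhythmic in winter and 3 differed in their curves. With a minimum of 5 FPKM, 3 were rhythmic in spring. After median-ratio scaling, 19 were higher in spring than in autumn and 18 lower, 6 higher in summer than in spring, 14 higher in autumn than in winter and 12 higher in spring than in winter, with 1 rhythmic in the mean curve and 4 in spring. After quantile normalization, 21 were higher in summer than in winter, 17 higher in spring than in autumn and 17 lower (median -0.012), 33 lower in summer than in autumn (median -0.092), and 21 higher and 11 lower in spring than in winter, with 2 rhythmic in spring, 1 in summer and 2 in autumn. With array weights, 3 were rhythmic in autumn and 2 in winter. Without the 3 spring libraries that stood apart, 14 were higher in spring than in autumn and 25 lower, 12 higher and 5 lower in spring than in winter, 0 rhythmic in spring, 2 in autumn, and 3 differed in their curves. For these settings the cause was not tested, and the share of all tested genes called was not computed. Among the 67 subunit genes with a name of their own, fewer by construction and chosen after seeing the data, 6 were higher in summer than in winter, 5 in spring than in autumn, 6 in summer than in spring and 1 in spring than in winter, 9 were lower in autumn than in winter, 0 were rhythmic in autumn and 0 in winter, and 3 differed in their curves.

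Leaving out 1 library at a time gave 60 to 73 genes lower in summer than in autumn. For spring against winter it gave 4 to 12 higher and 11 to 26 lower. The higher count was 8 without the second spring library of hour 6 or of hour 14 or either autumn library of hour 2, 9 without the first winter library of hour 6, and 12 without the second spring library of hour 22. The lower count was 11 without the first spring library of hour 2 or hour 18 or the second of hour 22, and 12 without the second winter library of hour 18. Rhythmic genes numbered 0 to 1 for the mean curve (1 without the second spring library of hour 10), 0 to 5 in spring, 0 to 2 in autumn and 0 to 2 in winter, and curve differences 2 to 12, so single libraries decide these counts. The call of LOC111947053 in winter was lost in 7 omissions, that of rpl17 in spring in 4 and that of LOC101156845 in autumn in 2. For spring minus winter, rps14 and rps19bp1 each lost their call in 11 omissions.

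The titles carry running numbers that recur in each season. They run in order of clock hour and library, so a number marks the same clock hour in every season. A block on these numbers therefore takes up clock hour, and no label names a batch. Deviations of libraries with the same number correlated at -0.163 to 0.293 (median -0.00550; 6 of 36 above 0.1). At the median, libraries of the same number showed no common deviation. Whether some numbers mark a shared batch was not tested. With the running number as a block, 64 genes were lower and 0 higher in summer than in autumn. In summer against winter 43 were lower and 10 higher, and 72 differed between any seasons. For spring minus winter, the calls of rps14 and rps19bp1 were lost with the block (adjusted p = 0.0541 and 0.083). Depth is unknown, which limits what can be said of low entries such as rps10.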
